A study of Rattus norvegicus with 60 samples.

Results

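The nucleus accumbens, the ventral part of the striatum, was compared with 4 other brain regions of the same rats, the amygdala, frontal cortex, hippocampus and striatum. The members are the arrays labelled accumbens, of which 10 of 12 were used, among 60 arrays of 12 adult rats in all. They comprised 5 arrays of congenic NP.P rats and 5 of NP rats. Of the other regions, the amygdala had 5 congenic and 5 NP arrays, the frontal cortex 6 and 6, the hippocampus 5 and 4, and the striatum 6 and 6. NP rats were selectively bred to avoid alcohol. The congenic line, from general knowledge of these rats since the labels do not say it, carries DNA of the alcohol-preferring P line on chromosome 4 in an NP genome. The labels name no drug, diet or alcohol exposure. All rats were housed in pairs and accustomed to handling, and each region of each rat was hybridized to an array of its own. The tissue was dissected whole, so each value is a mixture of the cells present, and fewer cells of a type and less RNA per cell cannot be told apart.

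Each array was first correlated with a profile of every region, built from the medians of its arrays after removal of the mean across regions. On the 53 arrays used, the labelled region gave the highest of the 5 correlations in 53 of 53, between 0.57 and 0.91. Of the 7 arrays left out, 2 were labelled accumbens. The accumbens array of NP rat 8 correlated at -0.04 with accumbens and at 0.65 with hippocampus, and its Cartpt signal was 8.88. The hippocampus array of the same rat correlated at -0.23 with hippocampus and at 0.39 with accumbens, with a Cartpt signal of 12.3. The accumbens array of congenic rat 9 correlated at 0.23 with its region, with a Cartpt signal of 12.07 and a Tac1 signal of 10.46. The other arrays left out were amygdala congenic 3 (-0.06), amygdala NP 6 (0.27), hippocampus congenic 3 (-0.02) and hippocampus NP 11 (0.57). The arrays left out were named with these data already known, so counts and leading genes are also given for all 60 arrays. Among the arrays used, that of congenic rat 10 lay apart from the other 9 accumbens arrays for 5 of the genes described, and those genes are given without that rat too.

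The accumbens receives dopamine from the midbrain and glutamate from cortex, hippocampus and amygdala, and it is known for its part in reward and motivation. Most of its neurons are spiny projection neurons, which release GABA. Those of the direct pathway carry the D1 dopamine receptor with the peptides substance P and dynorphin, and those of the indirect pathway carry the D2 receptor with enkephalin. The dorsal striatum is built from the same classes of neuron, whereas projection neurons of the cortex and hippocampus release glutamate.

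Signals are log2 values of probe sets, the groups of probes that measure a transcript, and 1 probe set stands for each gene. A difference is a log2 difference, accumbens minus the mean of the other 4 regions unless another region is named, given with its standard error from the limma fit of all 53 arrays. It was called at a Benjamini-Hochberg adjusted p under 0.05. Of 10373 genes tested, 2440 (23.5%) were higher in accumbens and 5015 (48.3%) were lower. Most of these differences were small. At least 2-fold higher were 48 genes (0.463%), and at least 2-fold lower were 43 (0.415%). With all 60 arrays the counts were 2330 higher, 4235 lower, 30 at least 2-fold higher and 28 at least 2-fold lower. The median difference over all genes was -0.07. The share of calls that were higher, 32.7%, depended on the scaling and the filter. It was 53% after quantile normalization of the arrays and 47.1% with no filter on dim probe sets.

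The given markers separated accumbens from 3 of the regions. Against the striatum Drd1 and Tac1 were not called, and Rarb was called higher with overlapping signals. Drd1, the D1 receptor, had signals of 11.91, 12.54 and 12.75 in accumbens (lowest, median and highest of 10 arrays). In amygdala the same 3 values were 10.2, 10.83 and 11.16, in frontal cortex 8.01, 8.4 and 8.84, in hippocampus 7.88, 8.26 and 8.54, and for striatal arrays 11.85, 12.51 and 12.97. No array of amygdala, cortex or hippocampus reached the lowest accumbens array, while the striatal arrays spanned the whole accumbens range. Drd1 was 5.87-fold higher in accumbens than the mean of the others (2.55 ± 0.1, adjusted p = 1.23e-24), and its difference from striatum was 0.03 ± 0.12 (adjusted p = 0.821). With all 60 arrays the Drd1 difference was 1.97. Tac1, which encodes substance P, was 4.83-fold higher (2.27 ± 0.09) and differed from striatum by 0.23 ± 0.11 (adjusted p = 0.075). Rarb, a nuclear receptor for retinoic acid, was 3.65-fold higher (1.87 ± 0.07). Its accumbens signals, 10.79 to 11.44, overlapped the striatal ones, 10.51 to 11.36, although the difference of 0.28 ± 0.08 was called (adjusted p = 0.00287). Rarb was thus called above each other region (adjusted p = 0.0124 by limma for the weakest of the 4 comparisons).

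**Figure D1:**
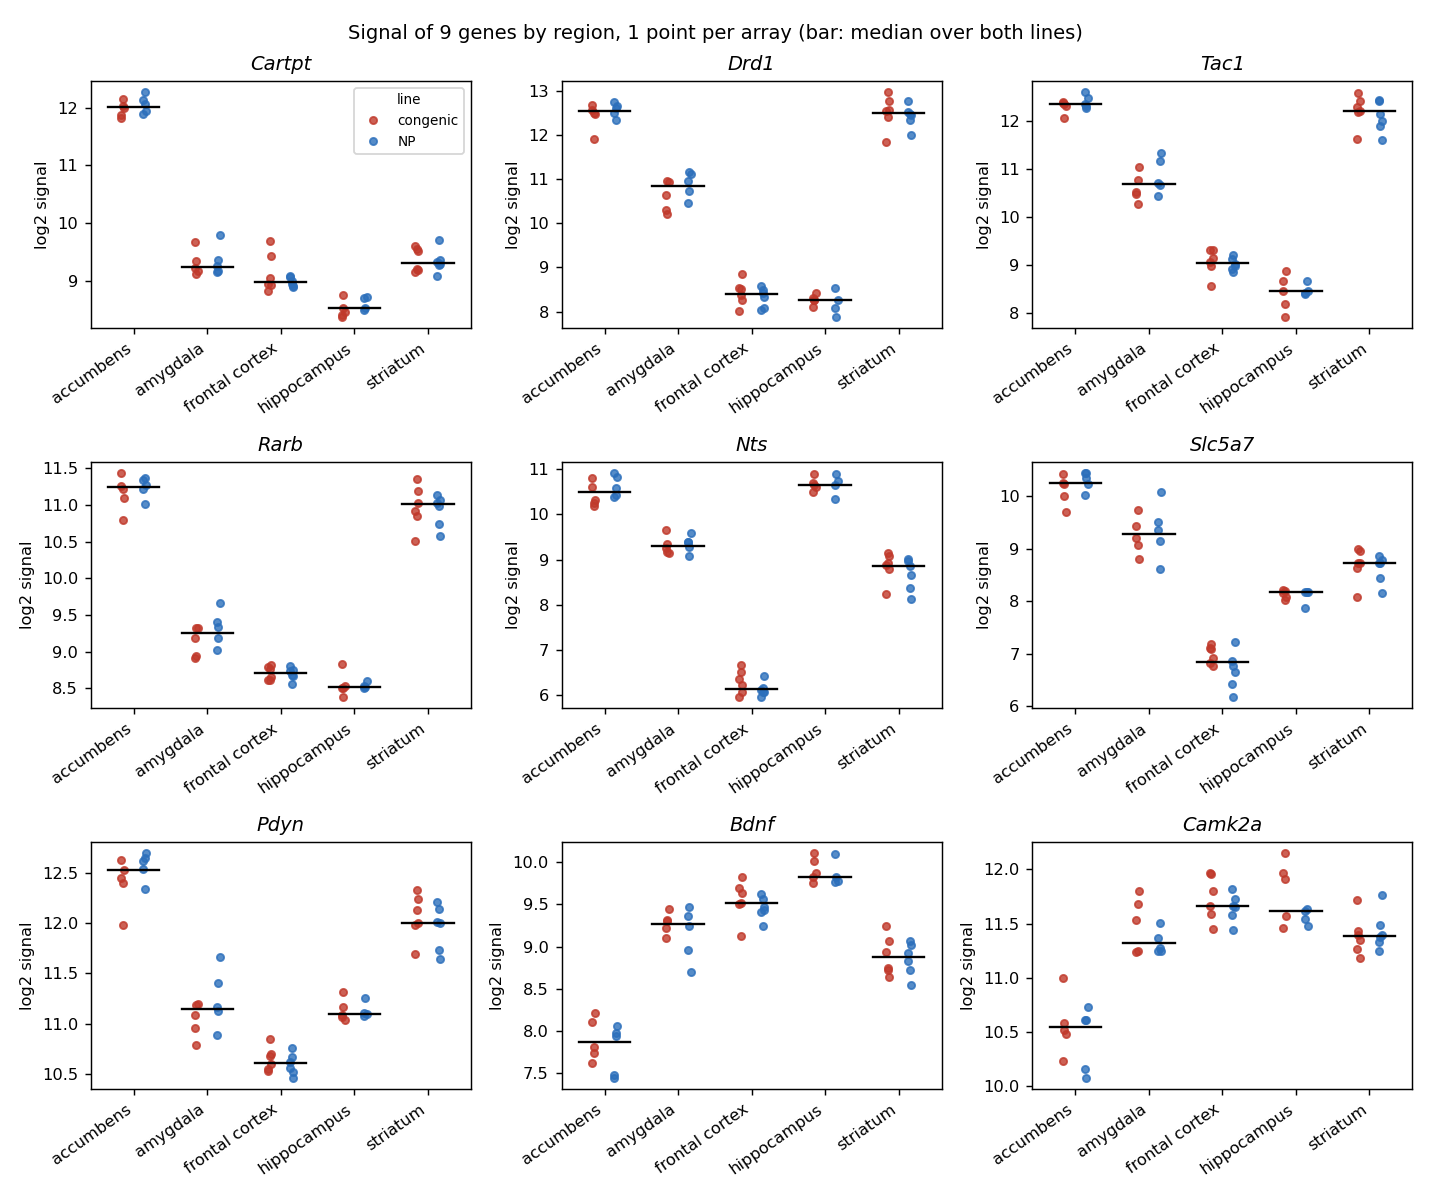
Log2 signal of 9 genes in each region, with 1 point per array, congenic arrays in red left of NP arrays in blue, and a bar at the median of the region. Cartpt stood alone in accumbens, where the 10 arrays lay between 11.83 and 12.27, Drd1, Tac1 and Rarb were high in accumbens and striatum alike, and Bdnf and Camk2a were lowest in accumbens.

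Cartpt, the precursor of the CART peptides, had the highest difference of all genes and was not shared with the striatum. Its signals in accumbens were 11.83, 12.01 and 12.27 (lowest, median and highest). Amygdala had 9.12, 9.23 and 9.79, frontal cortex 8.81, 8.97 and 9.68, hippocampus 8.37, 8.52 and 8.75, and striatum 9.08, 9.31 and 9.71. Every accumbens array lay above every other array used. Cartpt was 7.83-fold higher than the mean of the other regions (2.97 ± 0.07, limma adjusted p = 8.18e-33), 6.42-fold higher than striatum and 11.3-fold higher than hippocampus. The difference was 2.59 with all 60 arrays, and within the lines it was 2.93 in congenic and 3.01 in NP rats. The promoter of Cartpt is printed because no other gene differed as much. It comes from RefSeq (GRCr8, chr2:32991186-32991485, minus strand) and runs 5′ to 3′ from 250 bases before the gene's start to 50 after it. Capitals mark a match to the cyclic AMP response element, TGACGTCA, which begins at base -142 from the start.
Cartpt promoter: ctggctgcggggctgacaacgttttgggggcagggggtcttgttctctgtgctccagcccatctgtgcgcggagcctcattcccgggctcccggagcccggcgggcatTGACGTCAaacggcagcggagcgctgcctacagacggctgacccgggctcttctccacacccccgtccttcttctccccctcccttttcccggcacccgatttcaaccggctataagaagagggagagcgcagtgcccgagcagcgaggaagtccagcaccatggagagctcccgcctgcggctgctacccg
Among the 20 genes with the highest differences, 17 had a promoter in the RefSeq table, and 1 of these, Cartpt, held this motif on either strand. Among the 20 lowest genes it was 1 of 15, Neurod6. Of all 33469 promoters of the same length, 1.83% held it, and a match is only a description of the letters.

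Cartpt was 1 of 308 genes (2.97%) whose signal was above that of each other region, judged by the weakest of the 4 comparisons. With all 60 arrays there were 231, and with no filter on dim probe sets 529. A gene could pass the filter through its accumbens arrays, so the 308 describe the kept genes only. In 5 of the 308 the difference was at least 2-fold against all 4 regions, namely Cartpt, Cdhr1, Nmbr, Pcp4l1 and Col11a1. Nmbr, the receptor for the peptide neuromedin B, had signals of 8.89, 9.58 and 10 in accumbens (lowest, median, highest). Its highest array was 8.15 in amygdala, 8.14 in cortex, 7.92 in hippocampus and 7.92 in striatum. The groups did not overlap, and Nmbr was 3.12-fold higher than the mean of the others and 3.5-fold higher than striatum. Pcp4l1, a small relative of the calmodulin-binding protein PEP-19, was 5.11-fold higher (2.35 ± 0.06) with accumbens signals of 11.43 to 11.79. The striatum held the next level of Pcp4l1, 10.17 to 10.83, which was 1.06 ± 0.08 lower. Col11a1, a chain of a fibrillar collagen, had signals of 9.54 to 9.83 in accumbens and of at most 9.04 in any other region, and was 2.47-fold higher.

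Cdhr1, a cadherin-related protein known from photoreceptors and from mitral cells of the olfactory bulb, was 4.52-fold higher (2.18 ± 0.13). Its accumbens signals were 9.62, 10.25 and 11.97, and the highest came from congenic rat 10, while the other 9 arrays ended at 10.62. No array of another region exceeded 9.54, the top of the striatum. Without rat 10 the difference was 1.99. Spp1, the secreted protein osteopontin, was called above each region as well, with accumbens signals of 8.67, 9.01 and 10.51. The same array was the highest, the others ended at 9.29, and the difference of 1.29 ± 0.09 was 1.13 without that rat. Shisa8, an auxiliary protein of AMPA receptors, was 1.62-fold higher (0.7 ± 0.05), or 0.62 on the log2 scale without it. Calls of genes above each region numbered 316 without rat 10.

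**Figure D2:**
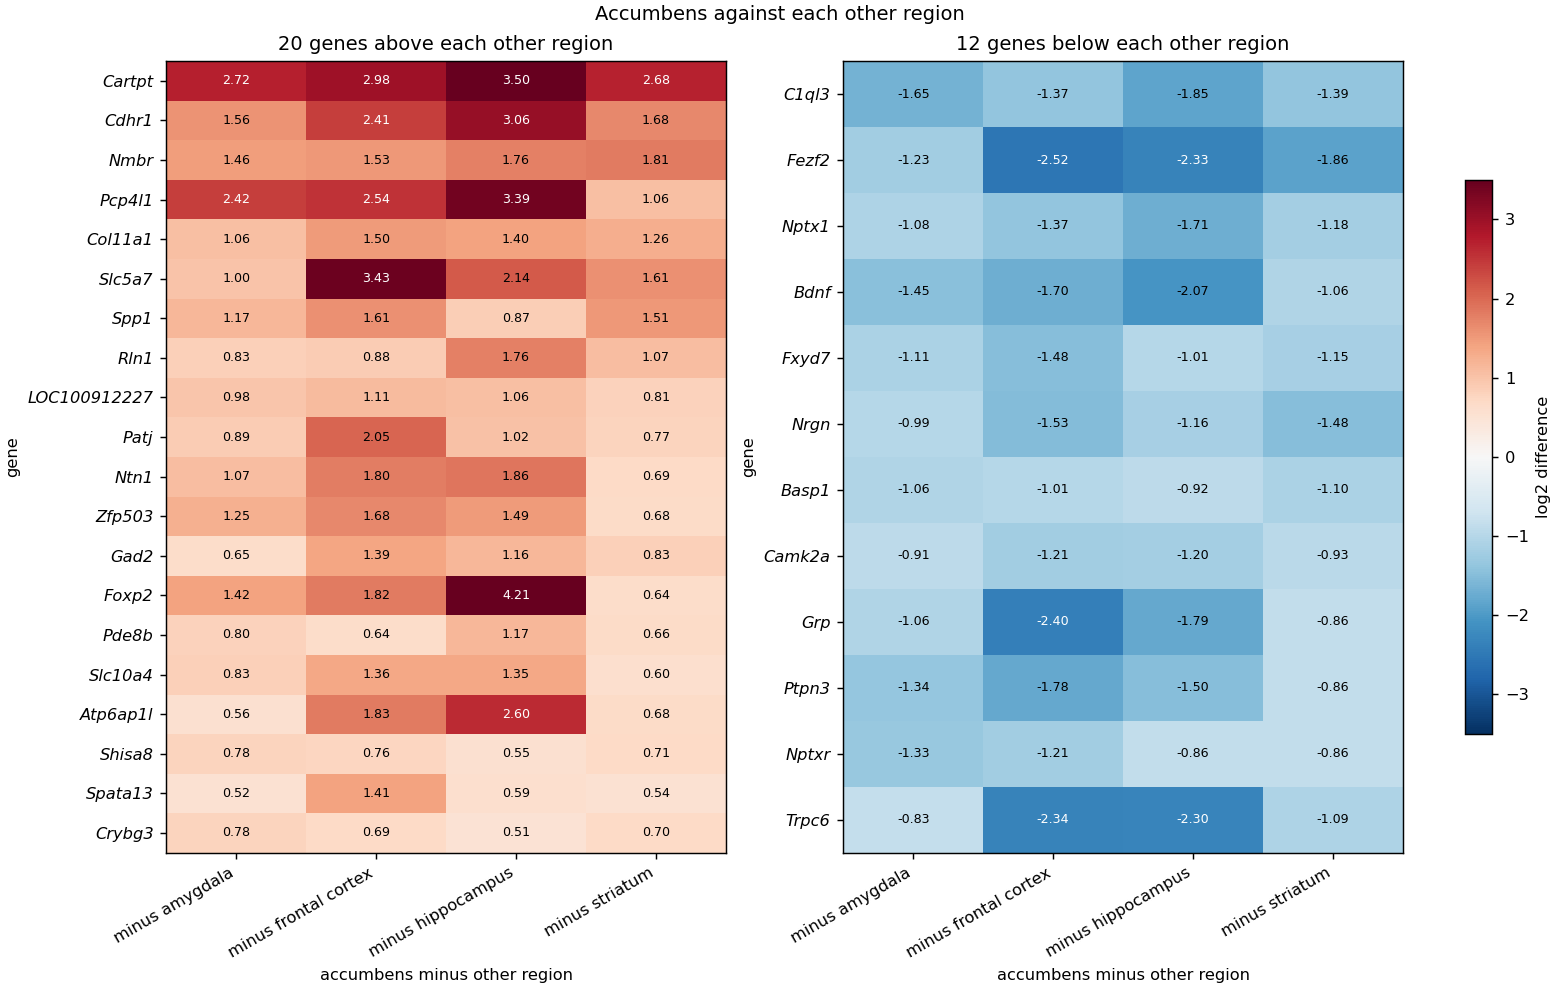
Log2 difference of accumbens from each other region for the 20 genes with the largest smallest difference above each region (left) and the 12 below each region (right), red for higher in accumbens and blue for lower. Cartpt exceeded every region by at least 2.68, and C1ql3 was below every region by at least 1.37.

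Other genes above each region belonged to several functional classes. Ntn1, the axon guidance protein netrin-1, was 2.56-fold higher (1.35 ± 0.05) and exceeded striatum by 0.69. Patj, a scaffold protein of tight junctions, was 2.27-fold higher and exceeded striatum by 0.77. Rln1, a relaxin gene, had accumbens signals of 8.81 to 9.25 and was 2.2-fold higher. The smallest of the 4 differences was against striatum for Ntn1 and Patj and against amygdala for Rln1 (0.83). Pde8b, a phosphodiesterase of cyclic AMP, was 1.76-fold higher, and its other probe set was not called above each region (adjusted p = 0.205, and 0.13 against striatum). Atp6ap1l, LOC100912227 and Crybg3 were 2.68-fold, 1.99-fold and 1.59-fold higher. Kcna5, a voltage-gated potassium channel (1.42 ± 0.06), and Krt71, a keratin (1.69 ± 0.06), also exceeded each region. Krt71 was closest to the amygdala, by 0.41.

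Cholinergic interneurons of the striatum are few but large, and they take up choline through the transporter encoded by Slc5a7. Slc5a7 had accumbens signals of 9.71, 10.24 and 10.45. Amygdala had 8.61, 9.28 and 10.08, frontal cortex 6.17, 6.85 and 7.23, hippocampus 7.88, 8.17 and 8.21, and striatum 8.09, 8.73 and 9. The accumbens range overlapped that of amygdala and lay clear of the other 3. Slc5a7 was 4.12-fold higher than the mean of the others and 3.06-fold higher than striatum (1.61 ± 0.12). Slc18a3, the vesicular acetylcholine transporter, was above each region by a smaller margin (0.58 ± 0.05, and 0.29 against striatum). Slc10a4, a vesicular protein of cholinergic and monoaminergic terminals, exceeded each region too (1.03 ± 0.05, and 0.6 against striatum). Chat, which makes acetylcholine, was on the array and did not pass the filter on mean signal. Of 7 measured genes in the list of striatal interneurons, 6 were higher and 1 was lower, where 23.5% of all genes were higher and 48.3% lower. A gene could pass the filter through its accumbens arrays, so the count describes the measured genes only. The lower gene was Pvalb, the calcium-binding protein of fast-spiking cells, with signals of 9.69 to 10.15 in accumbens against 10.22 to 11 in striatum and 11.8 to 12.2 in frontal cortex. Against amygdala Pvalb was higher, by 0.33. Calb2, which encodes calretinin, was higher than the mean of the others by 0.51 ± 0.06 and lower than amygdala by 0.59. Npy was higher by 0.3 ± 0.03 and lay at -0.01 from striatum.

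Most genes shared by spiny projection neurons of both pathways were high in accumbens and higher still in striatum. Of 25 measured genes shared by both pathways, 21 were higher than the mean of the other regions and 1 was lower. Of all genes, 23.5% were higher than that mean and 48.3% lower. The median difference of the 25 was 0.63, against -0.07 over all genes. Against striatum alone 3 of the 25 were higher and 18 lower, with a median of -0.54, where 36.4% of all genes were higher, 29.7% were lower and the median was 0.03. Ppp1r1b, which encodes the phosphatase inhibitor DARPP-32, had signals of 12, 12.52 and 12.76 in accumbens, 11.1, 11.54 and 12.16 in amygdala, and 13.3, 13.8 and 14.18 in striatum. The 3 groups formed steps, with little overlap of accumbens and amygdala and none of accumbens and striatum. Ppp1r1b was 1.93-fold higher than the mean of the others and fell by 1.27 ± 0.1 against striatum (limma adjusted p = 4.72e-15). Among other members of the shared list, Pde10a, a phosphodiesterase, differed by 0.64 from the mean and by -1.12 from striatum. Rgs9, which speeds the shut-off of G proteins, differed by 1.27 and -0.58, and Adcy5, an adenylyl cyclase, by 0.6 and -0.72. Scn4b, a sodium channel subunit, lay at 0.73 and -1.15. Gnal, the G protein alpha subunit that couples the D1 receptor to adenylyl cyclase, lay at 1.22 ± 0.08 against the mean and at 0.01 against striatum, where it was not called. Of a separate list of 13 measured regulators of G protein signalling, which includes Rgs9, 6 were higher than the mean and 5 lower, and 3 were higher than striatum and 6 lower. Dclk3 was higher than striatum, by 0.28. For Bcl11b the probe sets disagreed. The brightest lay at 0.8 against the mean and 0.2 against striatum, and another at 0.78 and 0.6. The dimmest lay at -0.77 against striatum and at -0.05 against the mean, where it was not called. A dimmer probe set of Arpp21 lay at -0.49 against the mean, opposite to the 0.58 of its brightest probe set and the 0.78 of another.

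Genes of the direct and indirect pathways were each set against striatum too. In the direct pathway list 6 of 8 measured genes were higher than the mean of the other regions and 2 lower (median 0.74). Against striatum 2 were higher and 1 lower (median 0.11). Of all genes, 23.5% were higher and 48.3% lower than the mean, and 36.4% were higher and 29.7% lower than striatum. Pdyn, which encodes the dynorphin precursor, had signals of 11.98, 12.54 and 12.7 in accumbens and of 11.64, 12.01 and 12.33 in striatum. It was called above each region, 2.41-fold above the mean (1.27 ± 0.07) and 0.5 ± 0.08 above striatum. Its other probe set lay at 1.09 against the mean and 0.22 against striatum and was not called above each region (adjusted p = 0.184). Chrm4, a muscarinic receptor, was higher than the mean (0.18) and lower than striatum by 0.65. In the indirect pathway list all 5 measured genes were higher than the mean (median 1.24), and 4 of the 5 were lower than striatum (median -0.36). Drd2, the D2 receptor, had signals of 9.83, 10.45 and 10.71 in accumbens and of 10.88, 11.54 and 11.93 in striatum. The ranges did not overlap, and Drd2 was 2.07-fold lower in accumbens than in striatum (-1.05 ± 0.13, adjusted p = 5.49e-09) while 2.84-fold higher than the mean. Penk, the enkephalin precursor, lay at 1.66 against the mean and at -0.34 ± 0.08 against striatum, Adora2a, an adenosine receptor, at 0.84 and -0.56, and Gpr6 at 1.24 and -0.36. Another probe set of Adora2a lay at 1.81 against the mean. Ptprm did not pass against striatum (0.09). The difference between the 2 lists was not tested.

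**Figure D3:**
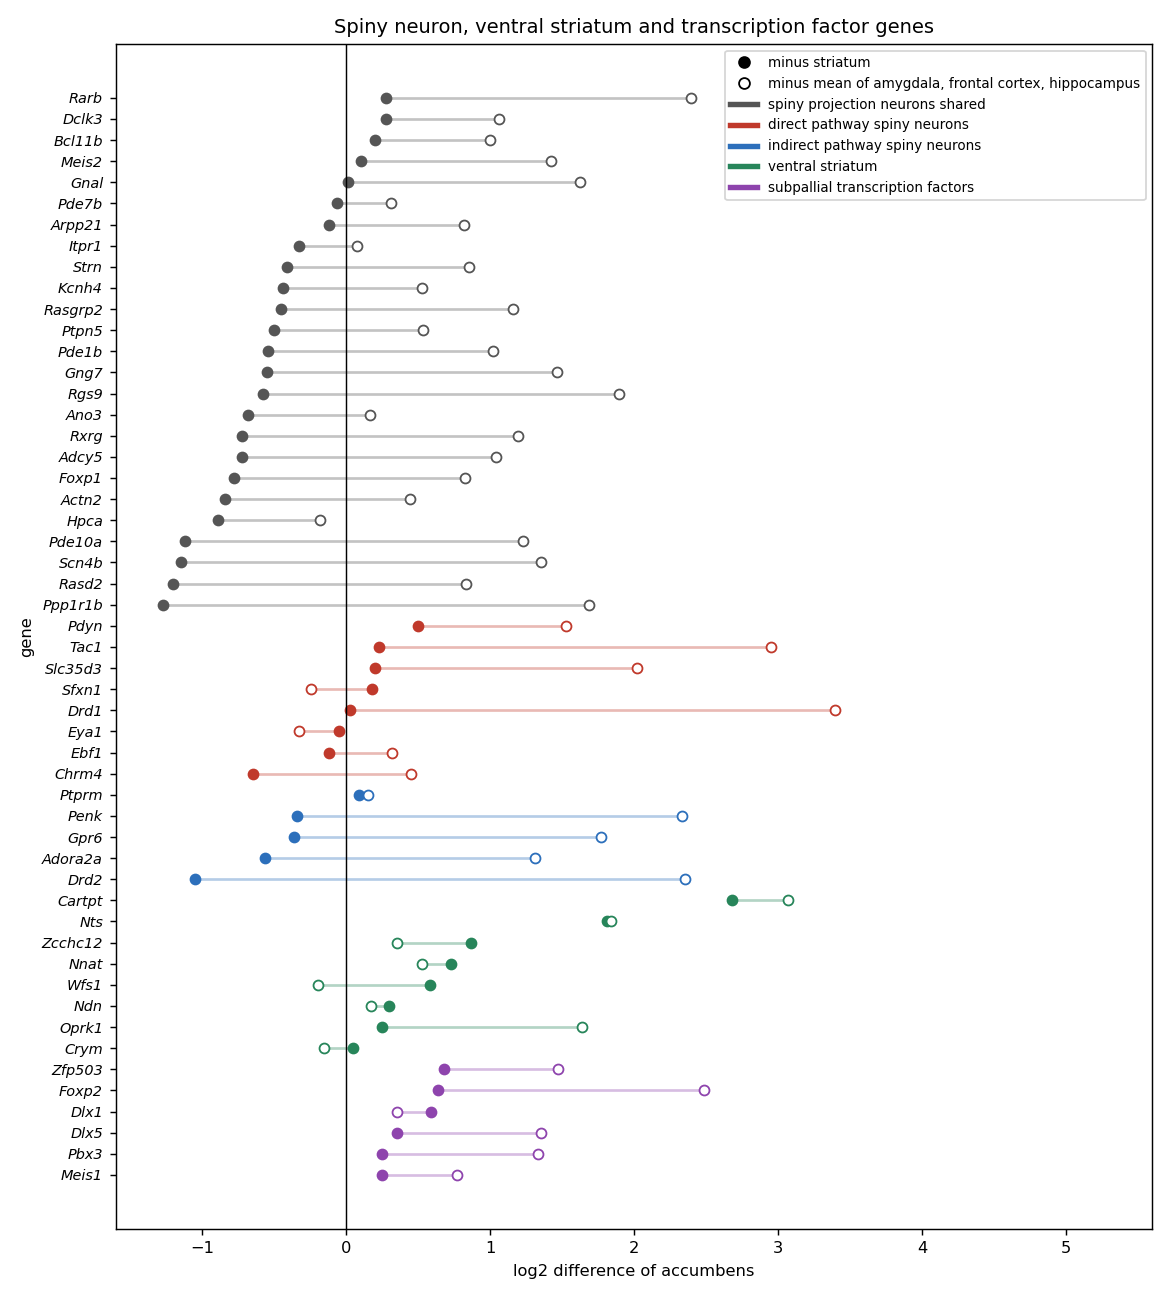
Log2 difference of accumbens from striatum (filled points) and from the mean of amygdala, frontal cortex and hippocampus (open points) for genes of 5 lists, grouped by colour. Most shared spiny neuron genes and all but Ptprm of the indirect list lie left of 0 against striatum, while the ventral striatum and transcription factor genes lie at or right of 0.

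Of 14 genes listed for the ventral striatum, 8 passed the filter and 6 did not (Drd3, Dlk1, Peg10, Calcr, Trh and Stard5). Against the mean of the other regions 6 of the 8 were higher (median 0.53), where 23.5% of all genes were higher. Against striatum 7 were higher and none was lower (median 0.65), where 36.4% of all genes were higher. A gene could pass the filter through its accumbens arrays, so these counts describe the measured genes only. Nts, the precursor of neurotensin, had signals of 10.18, 10.51 and 10.92 in accumbens. Amygdala had 9.09, 9.31 and 9.65, frontal cortex 5.96, 6.14 and 6.68, hippocampus 10.34, 10.65 and 10.9, and striatum 8.14, 8.87 and 9.14. The hippocampal range lay within the accumbens one (difference -0.07 ± 0.1, adjusted p = 0.52). Nts was 3.51-fold higher in accumbens than in striatum and 20.3-fold higher than in frontal cortex. Oprk1, the kappa opioid receptor on which dynorphin acts, had signals of 8.81 to 9.6 in accumbens, against 8.55 to 8.99 in amygdala and 8.73 to 9.37 in striatum. It was 2.45-fold higher than the mean, with small differences of 0.49 from amygdala and 0.25 from striatum. The imprinted gene Nnat and the gene Zcchc12 were higher than striatum by 0.73 and 0.87 and lower than amygdala by 0.41 and 0.47. Wfs1, whose product lies in the endoplasmic reticulum, lay at 0 against the mean and was higher than striatum by 0.58. Wfs1, Crym and Ndn were lower than amygdala too, by 0.54, 0.37 and 0.17. Of the opioid list, 4 of 6 measured genes were higher and 2, Pnoc and Oprl1, were lower, by 0.21 and 0.2.

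Transcription factors of the developing ventral forebrain were higher in accumbens in 7 of 7 measured cases (median 1.09), where 23.5% of all genes were higher. Of 12 on the array, 5 did not pass the filter. A gene could pass it through its accumbens arrays, so the count describes the measured genes only. Foxp2, known for its role in vocal learning circuits, had signals of 9.77, 10.07 and 10.29 in accumbens. Amygdala ran from 8.46 to 8.78, frontal cortex from 7.79 to 8.72, hippocampus from 5.35 to 6.17 and striatum from 8.98 to 9.81. Only the striatum touched the accumbens range. Foxp2 was 4.05-fold higher than the mean (2.02 ± 0.07) and 0.64 ± 0.09 above striatum. Zfp503, a zinc finger protein of the early striatum, was 2.42-fold higher, with accumbens signals of 9.25 to 9.83 and none above 9.22 elsewhere. Dlx5, a homeobox gene of GABA neurons, and Pbx3, a homeobox cofactor, were also above each region, by 0.35 and 0.25 against striatum. Meis2 differed from striatum by 0.1 and was not called there (adjusted p = 0.137). Meis1 lay at 0.65 against the mean and at -0.2 against amygdala.

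Retinoic acid is made locally in the brain and acts through receptors that include Rarb, Rxrg and their relatives. Of 13 measured genes of retinoic acid signalling, 11 were higher in accumbens and 2 lower (median 0.41), where 23.5% of all genes were higher and 48.3% lower. Against striatum 5 of the 13 were higher and 5 lower (median -0.03), where 36.4% of all genes were higher and 29.7% lower. Rxrg, which pairs with Rarb, was higher than the mean by 0.71 ± 0.07 and lower than striatum by 0.72. Aldh1a2, which makes retinoic acid, and Crabp2 and Rbp4, which carry retinoids, were higher by 0.55, 0.71 and 0.56. Against amygdala Aldh1a2 was lower (-0.46 ± 0.14, adjusted p = 0.00365), while Crabp2 (-0.22 ± 0.17, adjusted p = 0.246) and Rbp4 (-0.21 ± 0.11, adjusted p = 0.0873) were not called. Meningeal genes also differed between regions, with values given under the other cell types, and their part in these differences was not tested. Cyp26b1, which breaks retinoic acid down, was lower (-0.76 ± 0.1), with signals of 8.88 to 9.72 in accumbens, 9.66 to 10.63 in amygdala and 10.1 to 10.93 in frontal cortex. A second probe set of Cyp26b1 lay at 0.05 and was not called. The promoter of Rarb is printed because retinoic acid is known to act on this gene through a response element near its start. It comes from the same RefSeq table (GRCr8, chr15:11336142-11336441, plus strand), and capitals mark a match to the retinoic acid response element, searched as GTTCA and again GTTCA after 6 bases of any kind, which begins at base 26 after the start.
Rarb promoter: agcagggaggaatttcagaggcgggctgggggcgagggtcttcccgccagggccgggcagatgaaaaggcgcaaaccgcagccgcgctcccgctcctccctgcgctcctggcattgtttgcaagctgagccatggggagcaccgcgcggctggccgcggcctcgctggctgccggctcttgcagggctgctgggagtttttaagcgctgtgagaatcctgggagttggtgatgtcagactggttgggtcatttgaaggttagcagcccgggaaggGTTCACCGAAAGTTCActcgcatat
This motif was searched on both strands. It was held by 1 of 17 promoters of the highest genes, Rarb, by 1 of 15 of the lowest, Ptpn3, and by 0.418% of all promoters.

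GABA synthesis and release genes were higher in accumbens in 4 of 4 measured cases (median 0.73), where 23.5% of all genes were higher. Gad2, which makes GABA for synaptic release, had signals of 9.91, 10.28 and 10.62 in accumbens. Amygdala ran from 9.29 to 9.8, frontal cortex from 8.65 to 9.04, hippocampus from 8.73 to 9.53 and striatum from 9.08 to 9.84. No array of another region reached the lowest accumbens array. Gad2 was 2.01-fold higher than the mean and 0.83 ± 0.08 above striatum. Gad1, the other GABA-making enzyme, was also above each region (0.62 ± 0.03, and 0.43 against striatum). Slc32a1, which loads GABA into vesicles, was higher than the mean by 0.85 and lay at 0.04 against striatum. Of 8 measured GABA-A receptor subunits, 1 was higher and 2 were lower, where 23.5% of all genes were higher and 48.3% lower. Gabra5 was the one below each region (-0.73 ± 0.04), with signals of 10.6 to 10.99 in accumbens and of 12.27 to 12.54 in hippocampus.

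Below each other region were 1224 genes (11.8%), and 865 with all 60 arrays. In 5 of them the difference was at least 2-fold against all 4 regions, namely C1ql3, Fezf2, Nptx1, Bdnf and Fxyd7. Fezf2, a transcription factor of deep-layer cortical neurons, had signals of 6.95, 7.56 and 7.97 in accumbens. Amygdala ran from 8.37 to 9.33, frontal cortex from 9.79 to 10.37, hippocampus from 9.78 to 10.07 and striatum from 9.02 to 9.64. The groups did not overlap, and Fezf2 had the lowest difference of all genes, 3.96-fold lower than the mean (-1.99 ± 0.08). Its accumbens median lay under 7.68, the mean signal that a probe set needed to be kept. Bdnf, the neurotrophin that cortical neurons send to the striatum, had signals of 7.44, 7.87 and 8.21 in accumbens. Amygdala ran from 8.7 to 9.47, frontal cortex from 9.13 to 9.83, hippocampus from 9.75 to 10.11 and striatum from 8.54 to 9.24. Every accumbens array lay under every other array used, and Bdnf was 2.97-fold lower (-1.57 ± 0.06). The other kept probe set of Bdnf differed by -0.09 and was not called below each region.

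Other named genes were below each region as well. C1ql3, a secreted synaptic organizer, had accumbens signals of 9.08, 9.98 and 10.5 and was 2.96-fold lower (-1.57 ± 0.11). Its range overlapped that of frontal cortex, which began at 10.13. Nptx1 and Nptxr, a pentraxin and its receptor that gather AMPA receptors, were 2.52-fold and 2.09-fold lower. Nptx1 lay between 11.48 and 12.01 in accumbens and at 12.54 or more on every other array. Nrgn, the calmodulin-binding protein neurogranin, had signals of 12.11, 12.52 and 12.7 in accumbens, against at least 13.36 on every other array, and was 2.44-fold lower (-1.29 ± 0.04). The accumbens array of NP rat 6 was the lowest of Nrgn. Camk2a, a kinase of synaptic plasticity, had signals of 10.08, 10.55 and 11 in accumbens and of at least 11.18 elsewhere (2.09-fold lower). Its other probe sets lay at -0.5 and -0.41. Grp, the gastrin-releasing peptide, was 2.88-fold lower. Basp1, a membrane protein of axon terminals, Fxyd7, a regulator of the sodium pump, and Ptpn3, a tyrosine phosphatase, were 2.03-fold, 2.28-fold and 2.58-fold lower. Trpc6, a cation channel, was 3.12-fold lower, with accumbens signals of 6.44 to 6.73 that lay under the filter limit.

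Of 17 measured genes of cortical excitatory neurons, 13 were lower in accumbens and 2 higher (median -0.56), where 48.3% of all genes were lower and 23.5% higher. Against striatum 15 of the 17 were lower, where 29.7% of all genes were lower. Bhlhe22 had signals of 9.89 to 10.71 in accumbens, 10.37 to 11.12 in striatum and 12.69 to 13.23 in hippocampus, and was 2.96-fold lower than the mean (-1.56 ± 0.07). Neurod6, a transcription factor of pyramidal neurons, was 2.72-fold lower, but its accumbens range, 9.47 to 10.29, lay within that of amygdala, 9.42 to 10.89 (-0.14, not called). Adra1d, Ephb6, Dkk3, Wnt4 and Cst6, also among the 20 lowest, differed most from cortex or hippocampus and least from amygdala or striatum. Adra1d, an alpha-1 adrenergic receptor, had signals of 8.07 to 8.75 in accumbens, 8.17 to 9.18 in amygdala and at least 10.65 in cortex and hippocampus. Ephb6, an ephrin receptor, lay at -2.15 against frontal cortex and -0.21 against amygdala, and Dkk3, a secreted Wnt pathway protein, at -1.97 and -0.48. Wnt4 and Cst6 were lowest against hippocampus, by 2.55 and 2.45, and close to striatum, at -0.22 and -0.28. Ptgs2, the inducible cyclooxygenase, was below each region (-1.23 ± 0.08), as were Tmem215 (-1.29) and Catsperz (-1.38). Of the list of hippocampal neurons 4 of 7 measured genes were lower and 1 higher, and of the amygdala list 5 of 8 were lower and 3 higher. Of all genes 48.3% were lower, so these shares are near the background.

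Glutamate receptors were lower in accumbens in 13 of 18 measured cases and higher in 3 (median -0.3). Of all genes 48.3% were lower and 23.5% higher (median -0.07). Against striatum 11 of the 18 were lower and 2 higher (median -0.45), where 29.7% of all genes were lower and 36.4% higher. Grm2, a presynaptic metabotropic receptor, had signals of 7.62, 8 and 8.96 in accumbens. Amygdala ran from 8.55 to 9.15, frontal cortex from 9.5 to 9.87, hippocampus from 9.48 to 9.79 and striatum from 8.81 to 9.54. It was below each region, 2.32-fold lower than the mean (-1.22 ± 0.08). Grin1, the obligatory subunit of NMDA receptors, had a narrow accumbens range of 11.42 to 11.62 with every other array at 11.75 or above, and was 1.5-fold lower (-0.59 ± 0.03). Grin2a was lower by its brightest probe set (-1.15 ± 0.15) and slightly higher by another (0.14). Potassium channels were lower in 12 of 23 measured cases and higher in 7 (median -0.15), shares near those over all genes, 48.3% lower and 23.5% higher. Against striatum 15 of the 23 were lower and 3 higher (median -0.36), where 29.7% of all genes were lower and 36.4% higher. Kcnj6, a G protein-gated inward rectifier, was below each region (-1.2 ± 0.06), while its other probe sets lay at -0.34 and 0.22. Kcnj9, another member of that family, was below each region as well (-0.58).

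**Figure D4:**
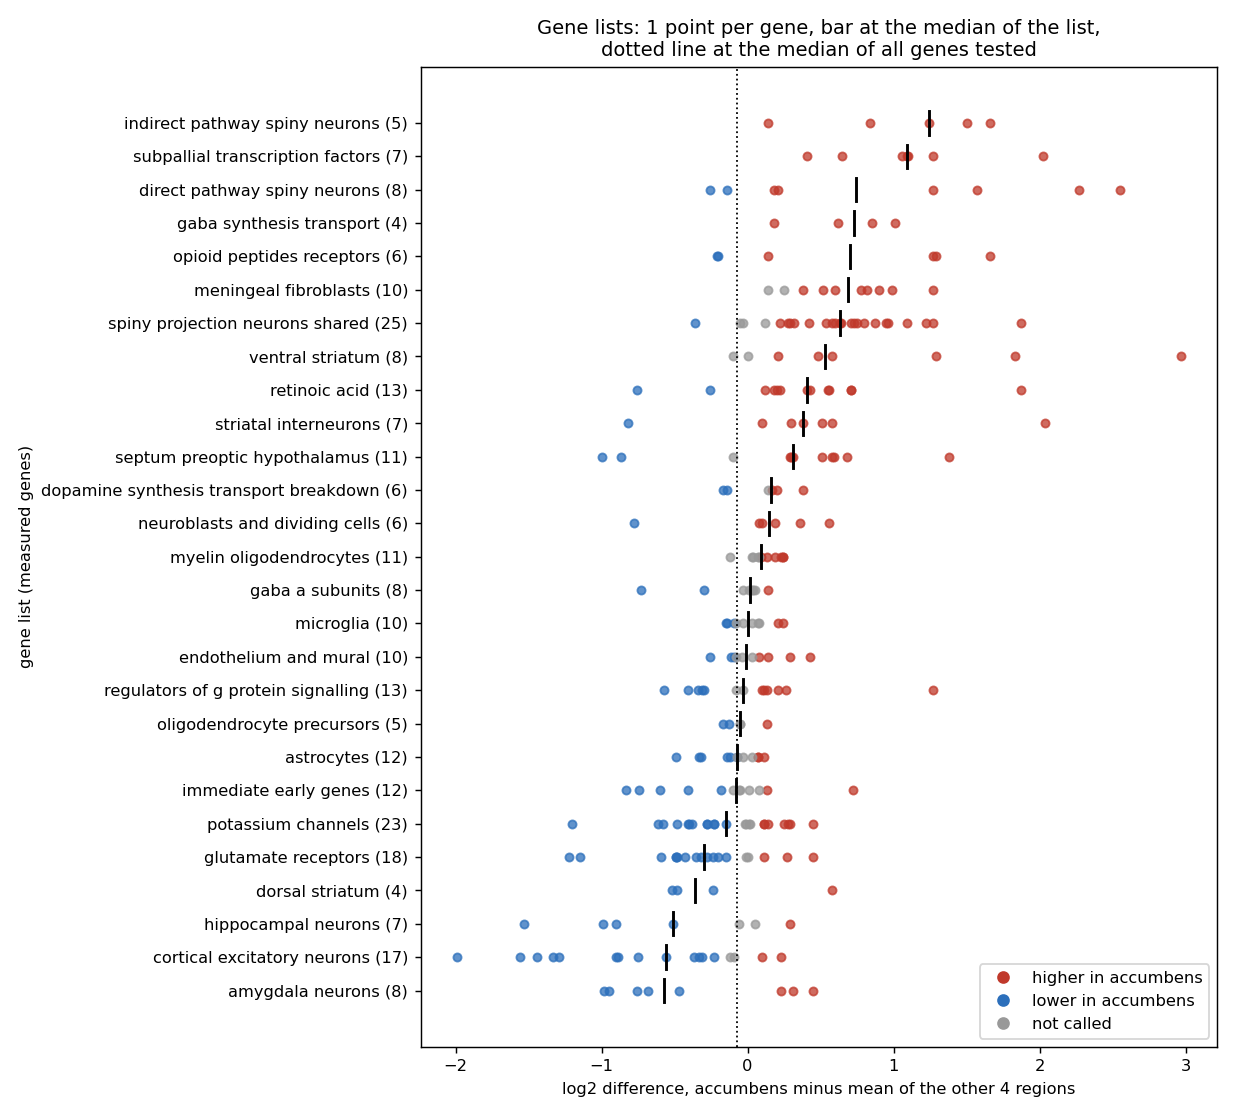
Log2 difference of accumbens from the mean of the other 4 regions for each measured gene of the lists, 1 point per gene, red where called higher, blue where called lower and grey where not called, with a bar at the list's median and a dotted line at -0.07, the median of all genes. Lists to the right include the spiny neurons, ventral forebrain transcription factors, GABA synthesis, opioid genes and meningeal fibroblasts. The GABA-A subunits have a median of 0.02. Lists to the left include cortical, hippocampal and amygdala neurons and glutamate receptors.

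Markers of other cell types differed between the regions and are given beside the neuronal lists. Of all genes, 23.5% were higher in accumbens than the mean and 36.4% higher than striatum. Of 10 meningeal fibroblast genes, 8 were higher in accumbens than the mean (median 0.69) and all 10 were higher than striatum (median 1.41). The mean log2 signal of this list was 10.03 to 10.46 in accumbens, 9.73 to 10.99 in amygdala, 8.39 to 10.64 for cortex, 8.67 to 9.84 for hippocampus and 8.17 to 9 for striatum. Ogn, a small proteoglycan, had signals of 11.92 to 12.43 in accumbens, against 11.22 to 12.48 in amygdala and 8.12 to 10.3 in striatum, and Lum, a similar proteoglycan, was higher than striatum by 2.17. The accumbens arrays thus lay in the amygdala's range and clear of the striatal one. Of the blood genes 3 of 3 measured were higher, and Hbb, a haemoglobin chain, exceeded striatum by 1.09 and amygdala by 0.26. The part of these cells in the differences from striatum was not tested. Against amygdala the 10 meningeal genes lay between -0.75 (Fmod) and 0.21 (Col1a1).

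Of 11 myelin genes 6 were higher (median 0.09), of 12 astrocyte genes 3 were higher and 6 lower (median -0.07), and of 10 microglial genes 2 were higher and 3 lower (median 0), all against the mean of the other regions, where 23.5% of all genes were higher and 48.3% lower. Against striatum 8 of the 12 astrocyte genes were higher and 1 lower (median 0.17), and 7 of the 10 microglial genes were higher and none was lower (median 0.21), where 36.4% of all genes were higher. The part of glia in the lower spiny neuron genes against striatum was not tested. Slc1a2, the main glutamate transporter of astrocytes, was below each region by its brightest probe set (-0.49 ± 0.05), and not by its other one (-0.3 against the mean). Of 10 endothelial and mural genes 4 were higher and 3 lower, with Acta2, the smooth muscle actin, at 0.43. Ttr, transthyretin, the main secretory product of the choroid plexus, did not behave as 1 group. It lay between 7.68 and 8.65 on 8 accumbens arrays, at 12.19 on NP 5 and at 13.93 on congenic 4, against 13.42 to 15.04 in hippocampus. Its difference of -1.81 ± 0.59 was -1.17 with all 60 arrays and not called there (adjusted p = 0.108), and -2.43 without rat 4. Folr1, also of the choroid plexus, lay at -0.53, with -2.59 against hippocampus. Of genes listed for septum, preoptic area and hypothalamus, which border the accumbens, 8 of 11 measured were higher and 2 lower. Of all genes 23.5% were higher and 48.3% lower. Another 4 listed genes on the array did not pass the filter. A gene could pass it through its accumbens arrays, so the count describes the measured genes only. Gal, the galanin precursor, was above each region (0.68 ± 0.07, signals of 8.61 to 9.49), and Ecel1, a neuronal protease, was 2.6-fold higher but lay at 0.15 against amygdala. Ecel1 signals lay under the filter limit of 7.68 in frontal cortex (6.19 to 6.87) and hippocampus (6.52 to 6.99). Vip was below each region (-1 ± 0.06).

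Immediate early genes are those that neurons switch on within minutes of activity. Of 12 measured, 2 were higher and 5 lower than the mean (median -0.08), where 48.3% of all genes were lower. Against striatum 1 was higher and 9 were lower (median -0.36), where 29.7% of all genes were lower. Fos had signals of 9.85, 10.28 and 10.55 in accumbens. Amygdala ran from 8.57 to 9.78, frontal cortex from 9.48 to 10.31, hippocampus from 8.17 to 9.19 and striatum from 8.54 to 10.27. It was called above each region, 1.65-fold above the mean (0.72 ± 0.08), although its ranges overlapped those of cortex and striatum, and its other probe set lay at 0.11. Jun was below each region (-0.74 ± 0.03), and 2 further probe sets gave -0.76 and -0.77. Arc was lower than the mean by 0.41 and lower than striatum by 1.04. The 6 measured genes of dopamine synthesis, transport, breakdown and reception outside the pathway lists differed by at most 0.38, the value of Th, whose accumbens signals ran from 7.71 to 9.03.

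The accumbens difference was compared between the lines by the interaction of region and line. At an adjusted p under 0.05, limma called none of 10373 genes (0%), and 974 (9.39%) had an unadjusted p under 0.05. The lowest adjusted p was 0.0622. The count depended on single rats and on the scaling. It was 24 without rat 11, 19 without rat 3 and 11 without rat 10, and 29 after quantile normalization. Bmpr2, a receptor for bone morphogenetic proteins, differed between accumbens and the other regions by 0.08 ± 0.19 in congenic and by -1.16 ± 0.14 in NP rats, an interaction of 1.23 ± 0.25. Over both lines its other probe set lay at 0.35, against -0.54 for the brightest. Cplx2, the synaptic protein complexin-2, lay at -0.09 in congenic and -1.15 in NP rats, and Sv2b, a synaptic vesicle protein, at 0.07 and -0.88. The accumbens ranges of these 3 genes were wide, 7.95 to 9.86, 7.94 to 9.71 and 10.45 to 12.4. Phka1, Usp19 and Cenpl had interactions of -0.3, -0.24 and -0.31. Of the leading genes, Drd1 differed by 2.48 in congenic and 2.63 in NP rats (interaction -0.15 ± 0.2), Tac1 by 2.22 and 2.33, and Nts by 1.71 and 1.95. C1ql3 differed by -1.23 in congenic and -1.9 in NP rats, with an interaction of 0.67 ± 0.19 (adjusted p = 0.118).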

How the data were processed

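The deposited values are log2 signals of 31099 probe sets on Affymetrix rat arrays, between 4.58 and 16.01, as the authors deposited them. Their background correction and normalization are not given in the sources used here. Per the labels' protocols, total RNA of each rat was extracted, labelled with biotin and hybridized separately. The 57 control probe sets were left out, and 18625 with a mean at or above the 40th percentile (7.68) passed the filter. Genes were named through the platform annotation for probe sets with 1 symbol, 14027 of those kept, for 10373 genes, and 20758 identifiers of all 20826 such probe sets matched RefSeq (GRCr8, used for names and promoters only). The probe set with the highest mean stood for a gene, and 9780 probe sets were not listed and 436 had several symbols.

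Region was fitted in R 4.3.3 with limma 3.58.1 with the animal as a fixed block on 53 arrays, tested 2-sided with empirical Bayes and adjusted by Benjamini-Hochberg over all kept probe sets. The 7 arrays left out were fixed by name with the definition of the comparison, and the profile correlations were computed from the files afterwards. A gene was above or below each region when the largest of its 4 p-values passed after adjustment. Figures used Python 3.11.15, matplotlib 3.10.9 and numpy 2.4.6. The steps were tested on simulated data. Animal numbers in the labels pair the regions of 1 rat. For 94 same-rat pairs of arrays the deviations from group means had an average correlation of 0.0706, against -0.00512 for 1168 pairs of different rats. No arrays were identical (highest correlation 0.998). Array number limits the precision, and no read depth applies.

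Members, gene lists and tests were chosen with earlier results of these data known. Named were the 20 highest and 20 lowest called genes, up to 20 above and 12 below each region by the smallest difference, up to 6 genes of each list by size of the difference, all members of the spiny neuron and ventral striatum lists, the 6 smallest interaction p-values and the 3 given markers. Alternatives changed the arrays, block, normalization, filter, threshold, lines, regions and animals.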

Additional observations from a re-analysis of the deposited data

Results flagged for a closer look

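Of 55 genes examined on the 10 accumbens arrays, 8 had 1 array set apart from the other 9 by Dixon's test, which flags about 1 group in 20 by chance. The array of congenic rat 10 was the one for 5 of them. It was the lowest for Drd1, at 11.91 against 12.35 to 12.75 on the others, and for Nexn, an actin-binding protein, at 9.3 against 9.73 to 10.12. It was the highest for Cdhr1, at 11.97 against 9.62 to 10.62, for Spp1, at 10.51 against 8.67 to 9.29, and for Shisa8, at 9.43 against 8.44 to 8.76. Without rat 10, Drd1 differed by 2.62 and Nexn by 2.16, and both calls held. On the same array Dcx, a protein of migrating neuroblasts, was at 10.22 and Calb2 at 11.44, genes picked here after their values were seen. The other 9 arrays ended at 9.47 for Dcx and at 10.62 for Calb2.

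The remaining 3 genes each had another array apart. Tmem215 was lowest on NP 12, at 6.21 against 6.65 to 7.06, Nrgn was lowest on NP 6, at 12.11 against 12.43 to 12.7, and Pde8b was highest on congenic 1, at 10.31 against 9.73 to 10.04.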

How the results depend on the processing

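Of 5105 values of the 212 named genes under the alternatives, 4857 kept their direction and their side of the threshold, 203 were no longer called, 23 became called and 22 changed sign. Counts of genes moved by over 1.5 times in these cases. With all 60 arrays, 30 genes were at least 2-fold higher and 28 lower. Quantile normalization gave 3804 higher, 712 above each, 775 below each and 29 called for the line interaction, and centring each array on its median gave 5 for the interaction. With no filter on dim probe sets 4750 were higher and 529 above each, and with the 60th percentile 1394 were higher, 29 at least 2-fold higher, 158 above each and 2 called for the interaction. A test against a 1.2-fold difference called 365 higher and 1004 lower. Congenic arrays alone gave 110 above and 805 below each, and NP arrays alone 187 and 703, from fewer samples. Other causes were not tested. Without the replicate block 2389 were higher and 5036 lower, and with a random replicate block 2434 and 5079. Neither change of the block moved a count by over 1.5 times. Leaving out each animal in turn gave 2252 to 2445 higher, 4782 to 5056 lower, 46 to 51 at least 2-fold higher, 41 to 46 at least 2-fold lower, 268 to 316 above and 1088 to 1228 below each. The interaction count ran from 0 to 24, with 24, 19 and 11 without rats 11, 3 and 10. Signs turned for Gabrg1 (-0.06) and Ugt8 (-0.07) with all 60 arrays, for Wfs1 (0.12), Fgfr3 (0.01) and Cldn5 (0.04) after quantile normalization, and for Ano3 (0.15), Gabrg1 (-0.01) and Pdgfra (0) without striatum. They turned by another probe set for Aqp4 (-0.07 and 0), Arpp21 (-0.49), Bcl11b (-0.05), Cyp26b1 (0.05), Gabrd (-0.14), Grin2a (0.14), Kcna2 (0.37), Kcnj6 (0.22), Kcnq3 (0.06), Pdgfrb (-0.29), Sox4 (-0.35), Stmn2 (-0.03) and Zbtb20 (-0.13). The share of calls that were higher ran from 24.6% to 53%. Levels under the filter limit have no measured background.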
